A study of Mus musculus with 14 samples.

Results

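The genes described here encode the constitutive proteasome: the subunits of its core and regulatory particles and the chaperones that assemble them. They were taken as every gene whose symbol on the array platform starts with Psma, Psmb, Psmc, Psmd or Psmg, leaving out the interferon-inducible catalytic subunits Psmb8, Psmb9 and Psmb10. This gave 41 of the 19937 genes with a probe set of their own, measured by 47 probe sets. Where a gene had several probe sets, which was so for 5 genes, the one brightest on average across the 14 arrays was used. Of the 41 genes, 38 fall into 7 classes by role, 2 are core subunits known from particular tissues (Psma8 and Psmb11), and Psmc3ip matches the symbol rule but encodes a protein of meiotic recombination.

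The proteasome is the protease that degrades proteins tagged with ubiquitin. Its core particle is a barrel of outer alpha rings, which hold the gate, and inner beta rings, which hold the catalytic sites. The regulatory particle caps the barrel. Its base contains a ring of ATPases that unfold the substrate and feed it into the core, together with ubiquitin receptors, and its lid removes the ubiquitin chain. In T cells, as in other lymphoid cells, inducible catalytic subunits can replace the constitutive ones during assembly of new core particles, which changes the peptides made for presentation on MHC class I.

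The series profiled sorted lymphocytes of C57BL/6 mice on whole-transcript microarrays: CD4+CD8+ thymocytes and CD8+ splenocytes, each from wild-type (WT) mice and from mice labelled ENK KO. What ENK stands for is left unexplained in the labels, while Engrailed-2 appears in the title. WT thymus had 3 arrays (replicate numbers 7, 32 and 38) and WT spleen 4 (22, 34, 37 and 40), all from mice aged 7 months. ENK KO thymus had 2 arrays, replicate 1 from a mouse aged 2 months and replicate 29 from one aged 7 months. ENK KO spleen had 5 arrays: replicates 3 and 6 from mice aged 2 months, and replicates 25, 28 and 31 from mice aged 9, 6 and 7 months. Of WT thymus 1 mouse, 1 of ENK KO thymus, 1 of WT spleen and 2 of ENK KO spleen were labelled female, so the 3 youngest animals were also ENK KO females. Tissue is confounded with cell type in every spleen-to-thymus comparison. Values are log2 probe set intensities, and the number of arrays limits their precision. The labels do not say whether arrays of different tissues came from the same mouse, and p-values measure the spread between these arrays. Some deposited values are the same to every digit on several arrays, for example 6.005801553 for the gene En2 on all 3 WT thymus arrays. Genes described below also repeat in thymus when read to 2 decimals. Psmd9 read 8.16 on all 3 WT thymus arrays, and Nploc4 read 11.14 on every thymus array. Psmc6 read 9.79 on WT thymus replicate 32 and on both ENK KO thymus arrays. How many genes repeat in this way is not given here. Where values repeat, standard errors and p-values can understate the spread between mice. How far they do was not tested.

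Array values were first set against the labels. En2, the gene that encodes Engrailed-2, lay between 6.01 and 6.14 in thymus, between 6.19 and 6.93 in WT spleen and between 6.12 and 7.87 in ENK KO spleen, so its level does not separate the genotypes, and the place of its probes relative to any deletion is unknown here. The library labelled spleen ENK KO replicate 28 read 12.20 for Cd4 and 6.78 for Cd8a, against 6.61 to 6.92 and 12.06 to 12.53 on the other 8 spleen arrays. Its Foxp3 level was 9.87, against 7.34 to 7.48 on the same 8 arrays. The library labelled spleen WT replicate 22 is given as female but read 5.90 for Xist, against 12.36 to 13.37 on the 4 other female-labelled arrays and 5.52 to 6.38 on the 9 male-labelled ones. Cd3e was between 13.06 and 13.38 on all 14 arrays. Markers of thymic epithelium, 8 genes, averaged between 6.93 and 7.00 on every array, and 2 of the 8 were below the level used to filter dim genes on every array. A B cell list (5 of 6 genes measured) averaged 6.88 to 7.10 in thymus and 7.28 to 8.69 in spleen, a red cell and platelet list (3 of 6 measured) 5.69 to 5.93 and 6.49 to 7.71, an NK cell list (3 genes) 5.31 to 5.44 and 5.90 to 6.96, and a myeloid list (7 genes) 6.44 to 6.53 and 6.51 to 6.89. Below the same filter level on every array were 2 of the 3 NK cell genes, 1 of the 3 red cell and platelet genes and 1 of the 7 myeloid genes. In such bulk samples a change in the cells present and a change in RNA per cell cannot be told apart.

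The comparison of WT spleen with WT thymus asked how the proteasome genes differ between mature CD8+ cells and CD4+CD8+ thymocytes. In WT mice 20 of the 40 members tested were lower in spleen and 5 were higher, at an adjusted p under 0.05. Over all 13641 genes tested, 38.2% were lower and 30.5% higher, so the lower share of the members (20 of 40) was above that of all genes and the higher share below it. The members' median difference was -0.18 on the log2 scale, against -0.04 for all genes. The members that were lower lay mainly in the regulatory particle: 12 of its 17 subunits were lower and 1 was higher, with a median of -0.28. In the core rings 5 of 14 were lower and 3 higher, with a median of -0.16. Most differences were small. When an unadjusted p under 0.05 and a fold of at least 1.5 were asked for together, 4 members were lower and 1 higher. The share of all genes at these thresholds is not given here, so this count does not set the members against other genes. With the library labelled spleen WT replicate 22 left out, 18 were lower and 4 higher.

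**Figure D1:**
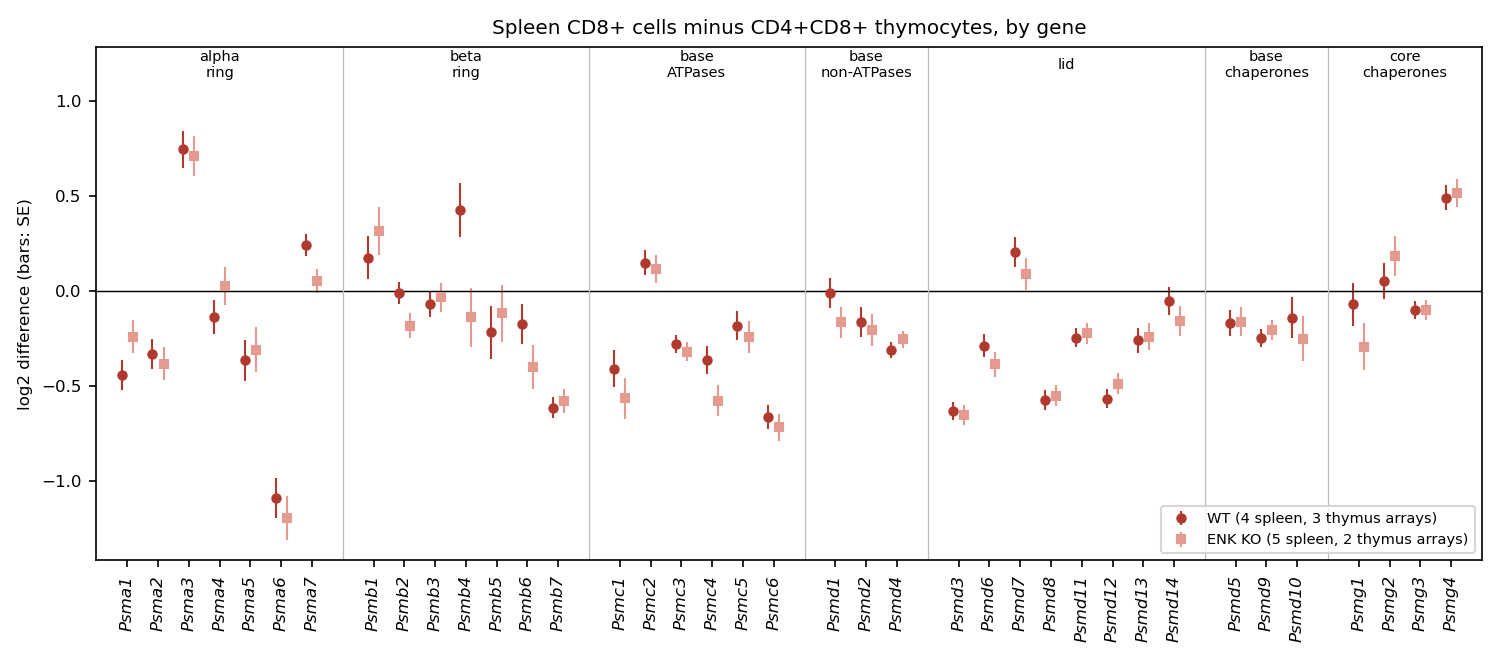
Log2 difference between spleen CD8+ cells and CD4+CD8+ thymocytes for the 38 classed genes, grouped by subunit class, in WT (circles) and ENK KO (squares) mice; bars are the standard errors of the limma fit. Most ATPase and lid genes lie below 0 in both genotypes, while Psma3, Psma7, Psmb1, Psmc2, Psmd7, Psmg2 and Psmg4 lie above it in both.

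In the alpha ring, the gate and outer wall of the core, 4 of 7 genes were lower in WT spleen (Psma1, Psma2, Psma5 and Psma6) and 2 were higher (Psma3 and Psma7), with a class median of -0.33. Psma6 had the largest difference of all members. It read 11.32, 10.98 and 10.81 on the 3 WT thymus arrays and 10.04, 9.96, 9.88 and 9.91 on the 4 WT spleen arrays. Every thymus array was thus above every spleen array, and the fall of 2.13-fold (log2 -1.09, SE 0.11, adjusted p 1.1e-06) was far larger than the spread within either group. The ENK KO arrays read 11.19 and 11.07 in thymus and 10.11, 9.86, 9.79, 9.92 and 9.99 in spleen, again with no overlap. Psma1, another alpha subunit, fell by 0.44 on the log2 scale (SE 0.08, adjusted p 0.00030), from 10.42 to 10.63 in WT thymus to 9.96 to 10.13 in WT spleen. Psma7 rose by 0.24 (SE 0.06, adjusted p 0.0021). Psma4 did not pass the test (-0.14, SE 0.09, adjusted p 0.20), since its WT thymus values, 9.58 to 10.03, span the spleen values, 9.59 to 9.73.

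The rise of Psma3 depended on which of its 3 probe sets was read. The probe set with the highest mean read 10.02 to 10.26 in WT thymus and 10.67 to 11.15 in WT spleen, a difference of 0.75 (SE 0.10, adjusted p 1.7e-05). A further probe set gave 0.86 (SE 0.12, adjusted p 3.9e-05). The remaining one fell instead, from 8.94 to 9.01 in WT thymus to 8.31 to 8.70 in WT spleen, a difference of -0.40 (SE 0.13, adjusted p 0.016). Probe set numbers on this array mostly follow genome order, and Psma3 lies on mouse chromosome 12. Around the probe set that fell, all 20 of the numerically nearest probe sets that could be placed belong to genes on chromosome 12. Around the other two, 19 of 20 lie on chromosome 14 and 19 of 19 on chromosome 6. The direction given for Psma3 is therefore uncertain. The positions of the probes themselves were not used here.

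The same check was made on the 4 other genes with several probe sets. For Psma5 the probe set with the highest mean, whose neighbours lie on chromosome 10 (19 of 20), gave -0.36 (SE 0.11, adjusted p 0.0092). Its other probe set, whose neighbours lie on the gene's own chromosome 3 (20 of 20), gave -0.09 (SE 0.10, adjusted p 0.45). Psmb3 gave -0.07 and 0.07 from its probe sets, neither of which passed the test. Psmc1 (-0.41 and -0.51) and Psmd2 (-0.16 and -0.19) had the same direction from both, and for these the probe set used is the one next to genes of the same chromosome. Reading the probe set on the gene's own chromosome for all 5 genes left 20 members lower and 4 higher in the WT comparison.

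**Figure D2:**
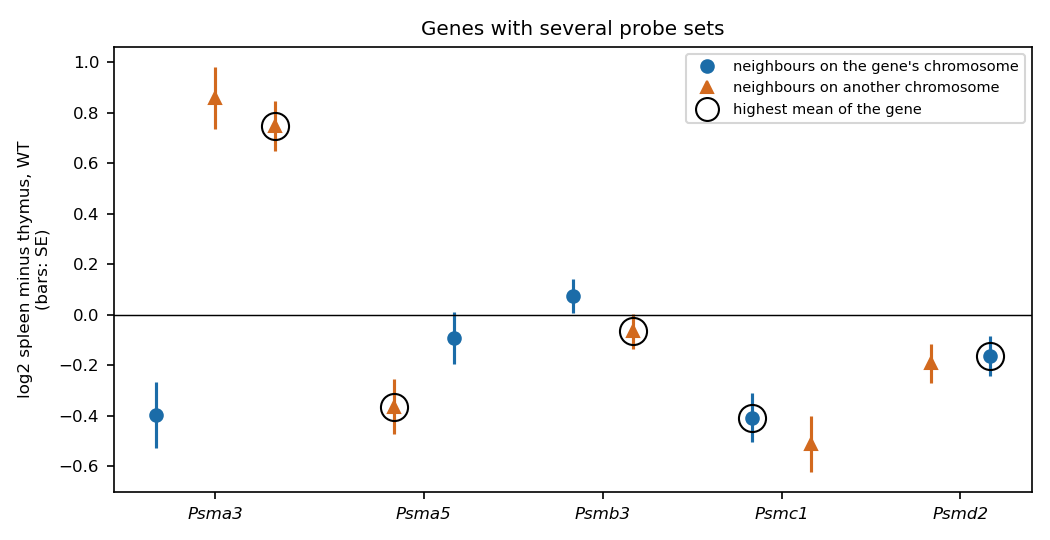
Log2 difference between WT spleen and WT thymus for each probe set of the 5 genes with several; bars are standard errors. Circles have neighbours in probe set number on the gene's chromosome, triangles on another chromosome, and the ring marks the probe set used; the Psma3 probe sets lie at 0.86, 0.75 and -0.40.

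In the beta ring, which carries the catalytic sites, 1 of the 7 genes was lower in WT spleen and 1 higher, with a median of -0.07. Psmb7, the subunit with trypsin-like activity, was the one that fell. It read 9.77, 9.73 and 9.80 in WT thymus and 9.08, 9.21, 9.18 and 9.15 in WT spleen, and in ENK KO mice 9.76 and 9.64 in thymus and 9.18, 9.01, 9.20, 9.05 and 9.16 in spleen. The groups did not overlap in either genotype, and the WT difference was -0.61 (SE 0.06, adjusted p 6.7e-07), a 1.53-fold fall. The other catalytic subunits did not pass the test in WT mice. Psmb6, with caspase-like activity, differed by -0.17 (SE 0.10, adjusted p 0.15) and Psmb5, with chymotrypsin-like activity and the main target of proteasome inhibitors, by -0.22 (SE 0.14, adjusted p 0.18). Psmb5 read 10.81 to 11.30 in WT thymus and 10.69 to 10.95 in WT spleen, so these groups overlap. Psmb4, a structural beta subunit, was higher in WT spleen by 0.43 (SE 0.14, adjusted p 0.018). That call rests on the male thymus arrays: replicates 32 and 38 read 10.25 and 10.10, while the female-labelled replicate 7 read 10.79, within the spleen range of 10.66 to 10.92. Without replicate 32 the difference was 0.36 and without replicate 38 it was 0.29, and neither passed the test.

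Of the 6 ATPases of the base, which form the unfolding ring, 5 were lower in WT spleen and none was higher, with a median of -0.32. Psmc6 had the smallest p. It read 9.78, 9.79 and 9.84 in WT thymus and 9.10, 9.21, 9.19 and 9.06 in WT spleen, and the ENK KO arrays read 9.79 and 9.79 in thymus and 9.22, 8.91, 9.09, 9.05 and 9.11 in spleen. All 5 thymus values lay between 9.78 and 9.84 and stood above all 9 spleen values. The WT difference was -0.66 (SE 0.07, adjusted p 1.2e-06), a 1.58-fold fall. Psmc3 fell by 0.28 (SE 0.05, adjusted p 0.00014) and Psmc4 by 0.36 (SE 0.07, adjusted p 0.00072), while Psmc1 and Psmc5 fell by 0.41 and 0.18. Psmc2 was the exception, at 0.15 (SE 0.07, adjusted p 0.061).

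Of the 3 non-ATPase subunits of the base, 1 was lower in WT spleen and none higher, with a median of -0.16. Psmd4, a ubiquitin receptor, read 9.29, 9.35 and 9.26 in WT thymus and 8.99, 8.99, 8.98 and 9.00 in WT spleen. The spleen arrays were nearly identical and lay below every thymus array, and the difference was -0.31 (SE 0.04, adjusted p 1.5e-05). In ENK KO mice Psmd4 read 9.31 and 9.18 in thymus and 9.00, 8.96, 9.00, 8.99 and 8.99 in spleen. The large scaffold subunits Psmd2 (-0.16, SE 0.08, adjusted p 0.078) and Psmd1 (-0.01, SE 0.08, adjusted p 0.91) did not pass the test.

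In the lid, 6 of 8 subunits were lower in WT spleen and 1 was higher, with a median of -0.27. Psmd3, a scaffold subunit, had the smallest p of all members. It read 9.62, 9.55 and 9.61 in WT thymus and 8.98, 8.95, 8.97 and 8.93 in WT spleen, a 1.55-fold fall (log2 -0.63, SE 0.05, adjusted p 9.0e-08). The ENK KO arrays repeated the separation, at 9.56 and 9.61 in thymus and 8.99, 8.84, 9.03, 8.93 and 8.88 in spleen. The scaffold subunits Psmd12 (-0.57, SE 0.05, adjusted p 4.1e-07) and Psmd8 (-0.57, SE 0.05, adjusted p 4.9e-07) fell by nearly the same amount, and Psmd6, Psmd11 and Psmd13 by 0.29, 0.25 and 0.26. The enzyme of the lid did not pass the test: Psmd14, the deubiquitinase that cuts the chain from the substrate, differed by -0.05 (SE 0.07, adjusted p 0.53). Psmd7, its catalytically inactive partner, was higher by 0.20 (SE 0.08, adjusted p 0.033). Psmd7 lost this call with median centring and when thymus WT replicate 32, spleen WT replicate 22 or spleen WT replicate 34 was left out. Within the lid the WT difference thus ran from -0.63 to 0.20.

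Assembly chaperones hold the intermediates of each particle together while it is built. Of the 3 chaperones of the base, 2 were lower in WT spleen and none higher. Psmd9 read 8.16, 8.16 and 8.16 in WT thymus and 7.89, 8.02, 7.87 and 7.88 in WT spleen (log2 -0.25, SE 0.05, adjusted p 0.00048), and in ENK KO mice 8.15 and 8.03 in thymus and 7.89, 7.96, 7.88, 7.87 and 7.84 in spleen. Psmd5 passed narrowly at -0.17 (SE 0.07, adjusted p 0.045) and kept this call in 16 of 27 alternatives, in which its adjusted p reached 0.21 (-0.11, without thymus WT replicate 38). Psmd10, also known as gankyrin, did not pass (-0.14, SE 0.11, adjusted p 0.26). Of the 4 chaperones of the core particle none was lower and 1 was higher. Psmg4 read 8.37, 8.23 and 8.24 in WT thymus and 8.88, 8.73, 8.71 and 8.77 in WT spleen, a 1.41-fold rise (log2 0.49, SE 0.07, adjusted p 2.2e-05). Its ENK KO arrays read 8.13 and 8.21 in thymus and 8.66, 8.52, 8.75, 8.77 and 8.73 in spleen, so every spleen array stood above every thymus array. Psmg3 differed by -0.10 (SE 0.05, adjusted p 0.081) and Psmg1 by -0.07 (SE 0.11, adjusted p 0.60).

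The remaining 3 members are not part of the ordinary proteasome. Psma8, an alpha subunit known from testis, read 5.66 to 5.79 in thymus and 5.85 to 6.14 in spleen on all 14 arrays. These values are below the level of 6.76 that a gene had to reach on 2 arrays, so it was not tested. Psmb11, the catalytic subunit of the proteasome of cortical thymic epithelium, read 6.79 to 6.98 on all 14 arrays and did not differ between WT spleen and WT thymus by the test (0.07, SE 0.05, adjusted p 0.20). Psmc3ip, the meiotic recombination protein, was lower in WT spleen by 0.46 (SE 0.08, adjusted p 0.00018).

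The same difference in ENK KO mice is taken between other arrays, although its standard errors and p-values come from the fit over all 14 arrays, WT included. There 21 of 40 members were lower in spleen and 3 were higher, against 37.1% and 27.4% of all genes tested, with a median of -0.23 for the members and -0.06 for all genes. Of the 25 members called in WT mice and the 24 called in ENK KO mice, 21 were called in both, all in the same direction, which is 84.0% of the WT list and 87.5% of the ENK KO list. The sign was the same for 38 of 40 members. Psma7, Psmb4, Psmd5 and Psmd7 passed in WT mice alone and Psmb1, Psmb2 and Psmb6 in ENK KO mice alone. Psmb1 lost its call without thymus WT replicate 32, and without spleen WT replicate 34 or 37. The call of Psmb1 was also lost without spleen ENK KO replicate 3, 6 or 28. By the test of the difference between the genotypes' tissue differences, 0 of the 40 members passed limma's test after adjustment (0.00733% of all genes did) and 2 had an unadjusted p under 0.05 (2.99% of all genes), so these calls are not shown to differ. By class, 5 of 6 ATPases, 6 of 8 lid subunits, 4 of 7 alpha subunits and 3 of 7 beta subunits were lower in ENK KO spleen, with medians of -0.44, -0.31, -0.24 and -0.14. Psma6 fell by 1.20 (SE 0.12, adjusted p 1.3e-06), Psmc6 by 0.72 (SE 0.07, adjusted p 1.7e-06), Psmd3 by 0.65 (SE 0.05, adjusted p 2.1e-07) and Psmb7 by 0.58 (SE 0.06, adjusted p 3.5e-06). Psmg4 rose by 0.52 (SE 0.07, adjusted p 3.7e-05). Psmb6, which missed the threshold in WT mice, fell by 0.40 here (SE 0.11, adjusted p 0.0080), from 9.77 and 9.40 in thymus to 9.02 to 9.35 in spleen. That call rests on thymus replicate 1: without it the difference was -0.21 (adjusted p 0.19), and without the 3 animals aged 2 months -0.18 (adjusted p 0.32). With the library labelled spleen ENK KO replicate 28 left out, 21 members were lower and 2 higher. Leaving out the 3 animals aged 2 months leaves 1 ENK KO thymus array. Fewer members were then called lower, and so were fewer of all genes tested. The members lost the larger share of their lower calls. Whether this drop is particular to the members was not tested.

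Averaging the genes of a class on each array, and setting each array against the mean of the WT thymus arrays, shows where each class stood on every array. The lid averaged -0.32 to -0.28 on the WT spleen arrays and -0.34 to -0.24 on the ENK KO spleen arrays, against -0.03 to 0.06 on the 5 thymus arrays. The ATPases averaged -0.32 to -0.28 and -0.37 to -0.23 in WT and ENK KO spleen, against -0.06 to 0.16 in thymus. Neither class overlapped between tissues. The alpha ring (-0.24 to -0.13 in spleen, -0.06 to 0.06 in thymus) was also separate, although its mean joins genes that fell with genes that rose. The beta ring was not: its spleen arrays ran from -0.24 to -0.03 and its thymus arrays from -0.09 to 0.15. The core particle chaperones ran the other way, from 0.01 to 0.15 in spleen and from -0.06 to 0.05 in thymus, with overlap. Cell division genes also differed between the tissues. A mitosis list (7 of 8 genes measured) averaged, on the same scale, -0.31 to 0.26 in WT thymus, 0.42 to 0.71 in ENK KO thymus and -2.04 to -1.67 in spleen. Its part in the proteasome differences was not tested, nor was that of the B cell, NK cell and red cell lists given above.

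**Figure D3:**
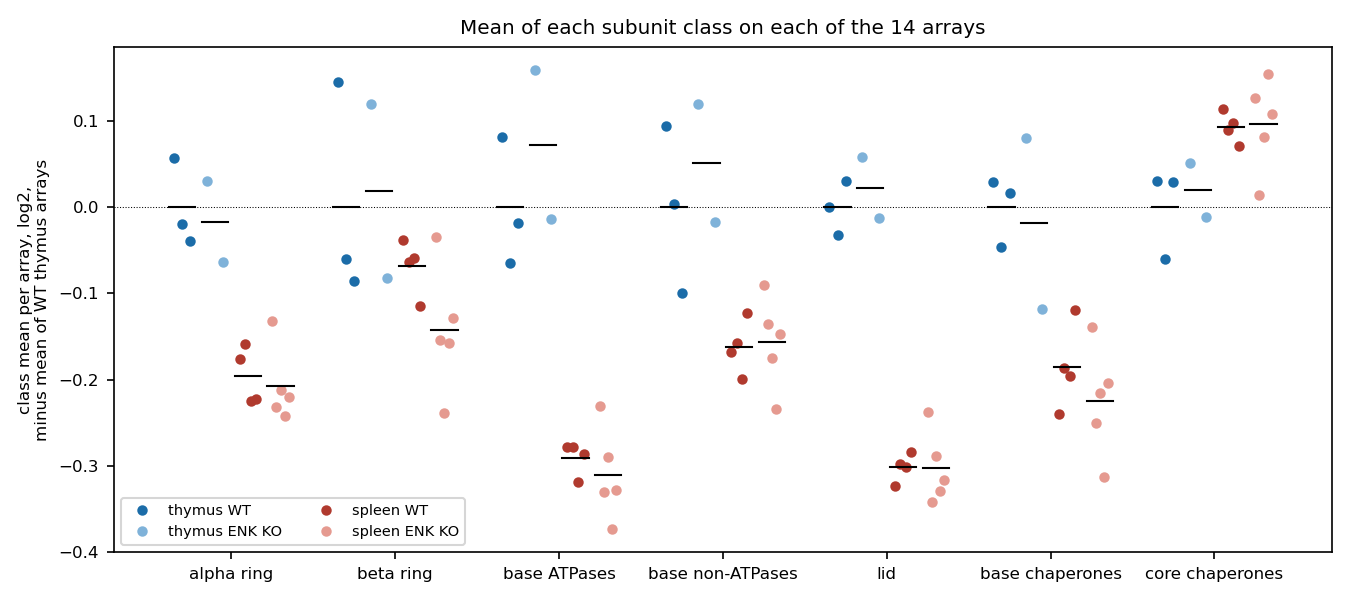
Mean log2 level of each subunit class on each of the 14 arrays, minus the mean of the 3 WT thymus arrays; points are arrays, coloured by group, and short lines are group means. Lid and ATPase points of spleen lie at -0.23 or lower and those of thymus at -0.06 or higher, while beta ring points of the tissues overlap.

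The constitutive catalytic subunits were then set against the inducible subunits that replace them, by taking the difference of the log2 values within each array and comparing it between groups. The level of 1 probe set against another has no meaning, so the differences are given relative to their mean in WT thymus. Psmb8 minus Psmb5 ranged from -0.15 to 0.08 on the WT thymus arrays and from 0.56 to 0.90 on the WT spleen arrays. Psmb9 minus Psmb6 ranged from -0.05 to 0.03 and from 1.49 to 1.67. Psmb10 minus Psmb7 ranged from -0.12 to 0.16 and from 1.81 to 2.13. The groups did not overlap for any of these pairs. The shift toward the inducible subunit in WT spleen was 0.77, 1.57 and 1.97 on the log2 scale, with a two-sided exact permutation p of 0.0286 for each (n = 4 and 3), which is the smallest this design allows. In ENK KO mice the shifts were 0.75, 1.74 and 1.96, with an exact permutation p of 0.0476 for each (n = 5 and 2), again the smallest possible. Adjusted over the 3 pairs of a comparison, these p-values stay the same. Most of each shift came from the inducible partner: Psmb8, Psmb9 and Psmb10 rose in WT spleen by 0.55, 1.39 and 1.36 on the log2 scale, while Psmb5, Psmb6 and Psmb7 differed by -0.22, -0.17 and -0.61. Between genotypes the pairs differed by -0.18 to 0.13 in thymus and by -0.19 to 0.12 in spleen, with exact permutation p from 0.333 to 0.6. The library labelled spleen ENK KO replicate 28 had the lowest value of its group for Psmb10 minus Psmb7, at 1.15. Without it the ENK KO tissue shifts were 0.72, 1.76 and 2.12.

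**Figure D4:**
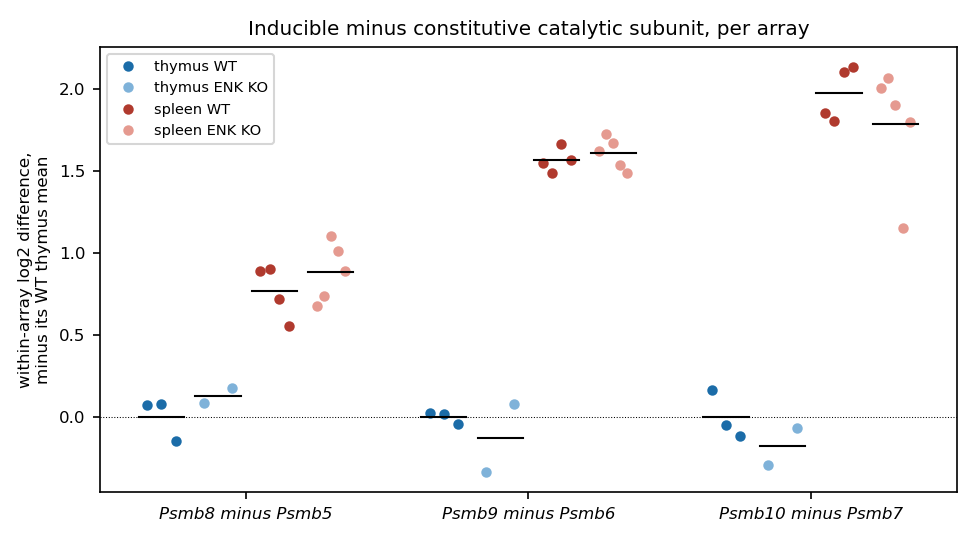
Within-array log2 difference between an inducible catalytic subunit and the constitutive one it replaces, minus its mean on the WT thymus arrays; points are arrays and short lines are group means. Every spleen array lies above every thymus array for each of the 3 pairs.

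The comparison of ENK KO with WT mice within each tissue asked whether the genotype moved these genes. No member passed the test in either tissue. In thymus 0 of 40 members passed limma's test after adjustment, where 0.0147% of all genes did, and 2 of 40 had an unadjusted p under 0.05, where 3.53% of all genes did. Their median difference was 0.02. The member with the smallest p was Psmb4, at 0.45 (SE 0.17, adjusted p 1.0). It read 10.98 and 10.68 on the ENK KO arrays and 10.79, 10.25 and 10.10 on the WT arrays, so the groups overlap. Psmg1, a core particle chaperone, was at 0.30 (SE 0.14, adjusted p 1.0), with 9.08 and 8.71 in ENK KO against 8.68, 8.49 and 8.61 in WT, which do not overlap. Psmc4 (0.18, SE 0.09) followed among the members above 0. Below 0 the members with the smallest p were Psma1 (-0.19, SE 0.10), Psmb3 (-0.15, SE 0.08) and Psma4 (-0.18, SE 0.11), all with an adjusted p of 1.0. The 2 ENK KO thymus arrays differ in both age and labelled sex, and neither can be told apart from the animal.

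In spleen 0 of 40 members passed limma's test after adjustment (0.00733% of all genes), also with the library labelled replicate 28 left out, and 0 of 40 had an unadjusted p under 0.05 (8.37% of all genes). Their median difference was -0.02, with 14 above 0 and 26 below. The members nearest to passing lay below 0: Psmb3 at -0.12 (SE 0.06, adjusted p 0.62), Psma7 at -0.08 (SE 0.05, adjusted p 0.67) and Psmg4 at -0.08 (SE 0.06, adjusted p 0.70). Those above 0 with the smallest p were Psma5 (0.11, SE 0.09, adjusted p 0.75), Psmd7 (0.07, SE 0.07, adjusted p 0.77) and Psmg1 (0.07, SE 0.10, adjusted p 0.84). Psma6, Psmd3 and Psmc6, which differed most clearly between tissues, were at -0.01 (SE 0.09), -0.03 (SE 0.04) and -0.07 (SE 0.06) between genotypes in spleen.

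**Figure D5:**
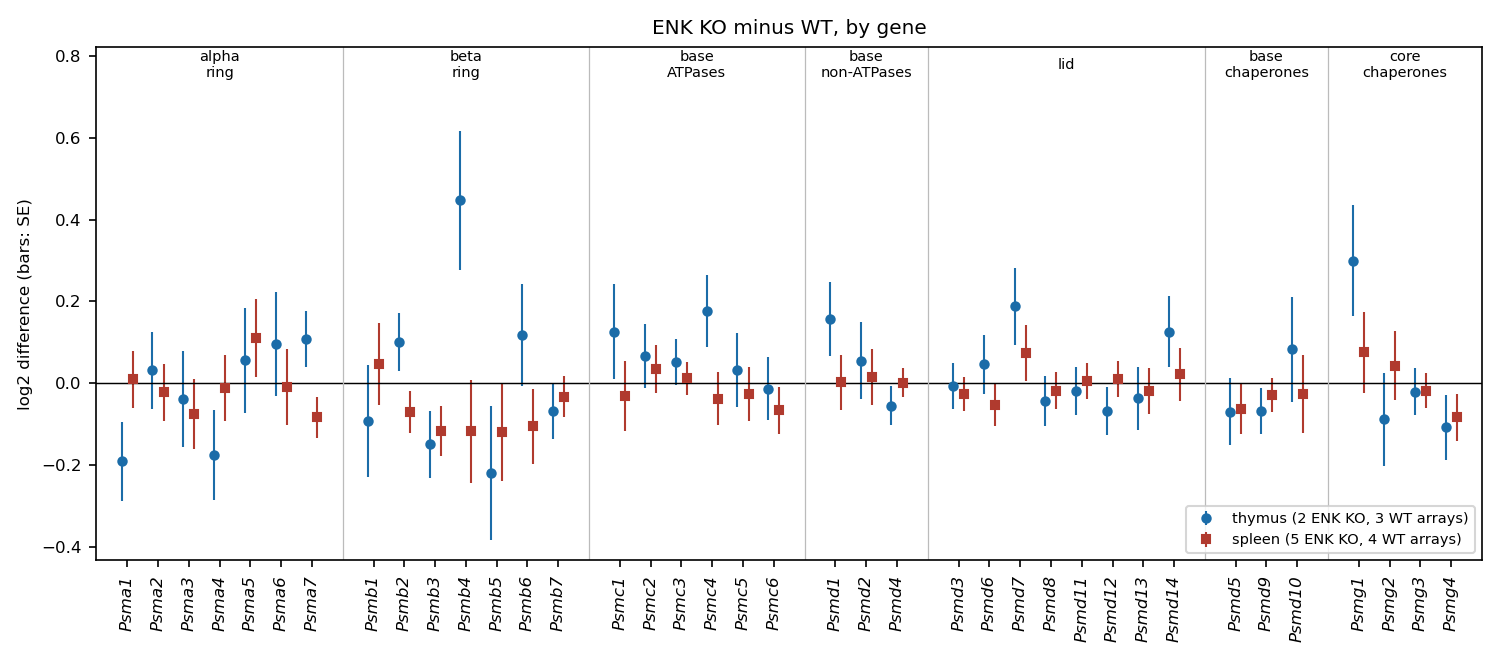
Log2 difference between ENK KO and WT for the 38 classed genes in thymus (circles) and spleen (squares); bars are the standard errors of the limma fit. The points scatter around 0 in every class; Psmb4 in thymus, at 0.45, is the farthest from it, and no gene passed the test.

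The array on which a member stood high or low was often shared by the members of a class. In thymus the female-labelled arrays, WT replicate 7 and ENK KO replicate 1, were both above all 3 male-labelled arrays for 15 of the 40 members tested, or 37.5%, where 9.4% of all genes were. Psma4 alone was below all 3 in both (2.5% of members, and 5.64% of all genes). Among the 15 were 5 of the 6 ATPases (Psmc1, Psmc2, Psmc3, Psmc4 and Psmc5) and the beta subunits Psmb1, Psmb2, Psmb4 and Psmb6. In a limma fit of labelled sex in thymus none of the 40 members passed after adjustment, and the smallest adjusted p was 0.20. In that fit 10 members were higher and 1 lower in the female-labelled arrays at an unadjusted p under 0.05, where 4.78% and 2.16% of all genes were, with a median of 0.08. In spleen 1 was higher and 1 lower (2.11% and 2.47% of all genes), with a median of 0.03. With 2 female-labelled arrays in thymus, sex cannot be told apart from these animals. The female-labelled spleen arrays were WT replicate 22, whose Xist level lay in the male range, and ENK KO replicates 3 and 6, both aged 2 months. The spleen fit therefore does not isolate sex either. The library labelled spleen ENK KO replicate 28 stood above the other 4 ENK KO spleen arrays for 7 of the 40 members tested (17.5%, and 22.5% of all genes) and below them for 14 (35.0%, and 26.6% of all genes).

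Other genes of the pathway were read from lists of inducible catalytic subunits, activators, assembly factors, ubiquitin enzymes, shuttle factors and transcription factors. Of 30 measured, 7 were higher and 14 lower in WT spleen, and 8 and 14 in ENK KO spleen. Psmb8, Psmb9 and Psmb10, described above, are among the 30 and among the 7 higher in WT spleen. Over all genes tested, 30.5% were higher and 38.2% lower in WT spleen, and 27.4% and 37.1% in ENK KO spleen. The counts for the single lists below are to be read beside these shares. Of the 5 activator and inhibitor genes 2 were higher and 1 lower. Psme2 and Psme1, the cap induced by interferon gamma, were higher in WT spleen by 2.21 (SE 0.09, adjusted p 1.8e-10) and 1.06 (SE 0.06, adjusted p 7.9e-09). Psme4, an alternative cap, was lower by 0.53, and Psme3 (0.07, adjusted p 0.30) and the inhibitor Psmf1 (0.16, adjusted p 0.067) did not pass. Of 6 other subunits and assembly factors 4 were lower and 1 higher. Akirin2, which brings proteasomes into the nucleus, fell by 0.42 (SE 0.06, adjusted p 6.6e-05) and Sem1, the smallest lid subunit, by 0.61 (SE 0.10, adjusted p 0.00020). Of 8 shuttle factor and segregase genes 4 were lower and 1 higher. Nploc4 fell by 0.44 (SE 0.05, adjusted p 2.3e-06) and its partner Vcp, the segregase that pulls ubiquitinated proteins out of complexes, by 0.56 (SE 0.07, adjusted p 1.3e-05). Uba6, a ubiquitin-activating enzyme and the 1 gene measured of its list, fell by 0.33.

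Of the 7 genes for transcription factors of proteasome genes and their processing, 4 were lower in WT spleen and none higher, where 38.2% and 30.5% of all genes were. Nfyb, a subunit of the factor that binds CCAAT boxes, fell by 1.13 (SE 0.06, adjusted p 3.4e-09) and Nfya by 0.73 (SE 0.07, adjusted p 9.1e-07). Nfyb read 9.39 to 9.45 on the 5 thymus arrays and 8.19 to 8.39 on the 8 spleen arrays other than the library labelled ENK KO replicate 28, which read 8.51. Nfe2l1, the factor that raises proteasome genes when the proteasome is inhibited, differed by -0.04 (SE 0.06, adjusted p 0.61), and Nfe2l2, the factor of the oxidative stress response, by 0.13 (SE 0.12, adjusted p 0.34).

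RefSeq promoter sequences (GRCm38.p6, 250 bases before to 50 after the start) were matched for 33 of the 41 members, giving 35 promoters. They are shown for a member of 3 classes that fell in spleen and for the chaperone that rose, because these genes moved apart. Only the 250 bases before the start are printed. Capitals mark the letters TGACNNNGC (core of the antioxidant response element), CCAAT and CCGGAAG (core of ETS family sites), on either strand. Psma6 has 2 starts in the table, and the start that holds CCGGAAG is shown; the bases before the other hold CCAAT at 2 places and no CCGGAAG. The windows are chr12:55398575-55398824 for Psma6, chr14:45329574-45329823 for Psmc6, chr11:107479278-107479527 for Psmd12 and chr13:34162714-34162963 for Psmg4, all on the plus strand.
Psma6: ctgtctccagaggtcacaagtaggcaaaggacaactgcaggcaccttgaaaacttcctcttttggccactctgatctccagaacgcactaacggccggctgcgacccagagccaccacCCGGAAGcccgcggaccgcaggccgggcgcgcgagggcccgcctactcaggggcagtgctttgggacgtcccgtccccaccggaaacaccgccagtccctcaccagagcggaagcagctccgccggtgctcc
Psmc6: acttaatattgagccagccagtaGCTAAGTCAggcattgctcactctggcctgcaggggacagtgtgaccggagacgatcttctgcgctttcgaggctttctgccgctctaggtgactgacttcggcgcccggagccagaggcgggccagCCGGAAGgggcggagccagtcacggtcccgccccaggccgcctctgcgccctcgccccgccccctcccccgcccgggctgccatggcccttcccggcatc
Psmd12: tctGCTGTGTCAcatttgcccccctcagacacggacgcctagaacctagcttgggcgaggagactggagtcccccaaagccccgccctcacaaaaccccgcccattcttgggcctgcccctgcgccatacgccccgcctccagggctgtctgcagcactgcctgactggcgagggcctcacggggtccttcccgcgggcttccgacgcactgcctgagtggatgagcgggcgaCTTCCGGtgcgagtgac
Psmg4: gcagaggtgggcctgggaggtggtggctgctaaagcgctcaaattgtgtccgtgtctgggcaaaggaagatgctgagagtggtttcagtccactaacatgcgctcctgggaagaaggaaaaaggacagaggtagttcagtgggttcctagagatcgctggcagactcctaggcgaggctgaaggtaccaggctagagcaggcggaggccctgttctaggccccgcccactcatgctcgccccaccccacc
The Psmc6 and Psmd12 windows each hold TGACNNNGC and CCGGAAG, and the Psmg4 window holds none of the marked letters. The windows shown do not stand for the members as a set. CCGGAAG was also found in promoters of Psmc2, Psmd2, Psmg1 and Psmg3, and none of these genes was called lower in WT spleen. Over the full 300 bases CCGGAAG was found in 14 of the 35 member promoters, or 40.0%, against 8.86% of all 32851 promoters in the table and 15.7% of the 13600 promoters of genes tested here. GGCGGG, the GC box, was found in 71.4%, against 35.3% and 58.1%. CCAAT, the box bound by the factor that Nfya and Nfyb belong to, was found in 37.1% of member promoters, against 37.4% and 36.8%, and TGACNNNGC in 14.3%, against 12.4% and 13.9%. Of the 13 member genes with CCGGAAG, 9 were lower in WT spleen, and of the 33 genes matched 17 were. The same count was 14 of 25 for GGCGGG, 6 of 13 for CCAAT and 3 of 5 for TGACNNNGC. A link between any of these letters and the direction of change was not tested. A match describes these letters in the window and is not evidence of a bound site.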

How the data were processed

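Expression was measured in 14 samples on Affymetrix whole-transcript arrays. Values are log2 intensities deposited by the authors after RMA, per the submitters' processing notes; scanner files were not used here. Probe sets with 1 gene symbol were kept (21640 of 28213), each gene was read from its probe set with the highest mean, and 13641 genes that exceeded 6.76, the 40th percentile over the whole table, on 2 or more arrays were tested. A group-means model over all 14 arrays was fitted with limma 3.58.1 (R 4.3.3; eBayes with a trend), with Benjamini-Hochberg adjustment over all genes tested and a threshold of 0.05. The fit was tested on simulated data. The 41 members, their classes, the other lists and the motifs were chosen with earlier results of these data known. Named genes are up to 3 per class with the smallest p in the WT tissue comparison, 3 in each direction per genotype comparison, up to 2 per pathway list, and Psmb5, Psmb6, Psmb7, Psma8, Psmb11 and Psmc3ip; other names serve counts of a class or were added after their values were seen. Within-array differences were compared by an exact permutation test. Groups come from sample titles. The alternatives changed the normalization, the filter, the probe set rule, the variance model, the covariates and the arrays; choosing the probe set whose numerical neighbours lie on the gene's own chromosome was added after seeing the data.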

Additional observations from a re-analysis of the deposited data

Results flagged for a closer look

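In 4 of 78 groups of 4 or 5 arrays tested, 1 array stood far from the rest of its group; chance alone gives about 1 in 20. Psmd9, a base assembly chaperone, read 8.02 on spleen WT replicate 34, above the next array at 7.89. Psma4, an alpha ring subunit, read 9.47 on spleen ENK KO replicate 25, below the next array at 9.67. Psmg3, a core particle chaperone, read 7.09 on the same array, below the next at 7.20. The mean of the alpha ring genes on spleen ENK KO replicate 3, relative to WT thymus, was -0.13, above the next array at -0.21.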

How the results depend on the processing

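The 66 named gene results were refitted 1788 times. Of these fits 1724 kept direction and call, 26 lost the call, 23 gained it and 15 changed sign, and of 60 fits of the within-array differences between genotypes 3 changed sign; the causes were not tested. Asking for an unadjusted p under 0.05 and a fold of at least 1.5 left 5 members in the WT tissue comparison (1 higher, 4 lower) and 4 in the ENK KO one (1 higher, 3 lower). The share of all genes at these thresholds is not given here. Leaving out 1 array at a time gave 18 to 20 lower and 3 to 7 higher members in WT mice, where 3 came without thymus WT replicate 32, and 14 to 24 lower and 2 to 4 higher in ENK KO mice. Without the 2-month-old animals 13 members were lower in ENK KO spleen. Genotype calls stayed at 0 under each alternative that was run.

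Class medians in the WT tissue comparison moved as follows. With quantile normalization they were -0.29 for the alpha ring, -0.26 for the ATPases, -0.092 for the non-ATPase base subunits and -0.22 for the lid. With array weights they were -0.10 for the non-ATPase base and -0.22 for the base chaperones, with males alone -0.045 for the non-ATPase base, with probe sets of a gene averaged -0.23 for the alpha ring, and with the 60th percentile filter 0.054 for the core chaperones. Leaving out 1 array gave -0.36 to -0.29 (alpha ring), -0.099 to -0.023 (beta ring, -0.07 with all arrays), -0.35 to -0.27 (ATPases), -0.22 to -0.056 (non-ATPase base), -0.23 to -0.14 (base chaperones) and -0.045 to 0.031 (core chaperones). In ENK KO mice quantile normalization gave -0.17 for the alpha ring and -0.13 for the non-ATPase base, own-chromosome probe sets -0.17 for the alpha ring, leaving out the 2-month-old animals or all females -0.11 for the base chaperones, and the 60th percentile filter 0.18 for the core chaperones. Leaving out 1 array gave -0.30 to -0.18 (alpha ring), -0.26 to -0.025 (beta ring), -0.52 to -0.35 (ATPases) and -0.27 to -0.10 (base chaperones).

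These single genes changed sign. Psma3 became -0.40 in WT and -0.17 in ENK KO mice with its own-chromosome probe set. Psmd1 in WT mice, at -0.01, became 0.063 with quantile normalization, 0.00092 with array weights and 0.023 with males alone, and ran from -0.086 to 0.027 with 1 array left out. In ENK KO mice Psmb4, at -0.14, became 0.0090 without the 2-month-old animals and with males alone, and with 1 array left out ran from -0.29 to 0.014; Psmb11 ran from -0.0078 to 0.038 and Psmb5 from -0.26 to 0.020. Psmg4 between spleen genotypes, at -0.08, became 0.0059 with sex and age in the model and 0.016 with males alone. Psmb9 minus Psmb6 between genotypes became 0.078 in thymus and -0.0029 in spleen without the 2-month-old animals, and in thymus ran from -0.34 to 0.078 with 1 array left out. With arrays left out, the exact test of the within-array differences between tissues and between thymus genotypes cannot reach 0.05, so their direction alone was read. No paired analysis was possible because the groups share no replicate number.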
